A study of Mus musculus with 10 samples.

Results

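Creatine kinase and adenylate metabolism is described here through 9 genes, listed by name: Ckm, Ckmt2, Ckb, Slc6a8, Ak1, Ampd1, Ampd3, Gamt and Adk. All 9 were present in the count table, which holds 21098 genes in all, and 8 of them carried enough counts to be tested. The table holds RNA-seq of the gastrocnemius, the large calf muscle, from male wild-type C57BL/6J mice (C57BL/6JBomTac in the study's methods), given as 30 weeks old (the stated weeks sum to 32), with 5 libraries in each of the treated and control groups. Every mouse was kept on a high-fat diet, started at 9 weeks of age and fed for 9 weeks before treatment and throughout it. The anti-miR-22 ASO group received RES-010, an antisense oligonucleotide with locked nucleic acid (LNA) bases that binds miR-22, under the skin at 10 mg/kg once a week for 14 weeks. The CTRL group received 0.9% saline in the same way, so an oligonucleotide of unrelated sequence and mice on a normal diet were not part of the comparison. All libraries came from whole muscle, in which fewer cells of a type and less RNA per cell cannot be told apart.

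Muscle buffers its ATP in several linked steps. Creatine enters the fiber through the transporter encoded by Slc6a8, or is made from guanidinoacetate by the product of Gamt. Creatine kinases then move phosphate between ATP and creatine, with the Ckm enzyme in the cytosol and at the myofibril, the Ckmt2 enzyme in the mitochondria of striated muscle, and the Ckb enzyme as the form typical of brain and other tissues. When ATP is spent faster than it is made, the adenylate kinase of Ak1 converts pairs of ADP into ATP and AMP, the AMP deaminases of Ampd1 (the muscle form) and Ampd3 (the erythrocyte form) convert AMP to IMP, and the adenosine kinase of Adk returns adenosine to AMP.

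Depth differed between the groups. The ASO libraries held 2239186 to 2632560 counts and the CTRL libraries 1606909 to 2116720, so every ASO library was the deeper one. Levels are given as CPM, a gene's counts divided by those of its library on a fixed scale after scaling between libraries. Across the whole table edgeR (quasi-likelihood, Benjamini-Hochberg adjusted p under 0.05) called 2281 of 7819 tested genes, or 29.2%, with 11.7% higher and 17.5% lower in the ASO group. The balance of directions depended on the scaling: 916 were higher and 1365 lower as reported, 1261 and 1207 with upper quartile scaling, and 528 and 1821 with total counts. The markers of skeletal muscle fibers were abundant in every library, at a summed 72361 to 98760 CPM in the ASO group and 38656 to 68896 CPM in the CTRL group, although 3 of the 8 genes on that list (Mb, Tnnt3 and Mylpf) were at 0 counts throughout. CTRL 3 stood apart by its adipocyte markers, which summed to 13740 CPM against 846 to 2383 CPM in the other CTRL libraries. ASO 4 stood apart by its slow fiber markers, at 7285 CPM against 88.8 to 1597 CPM in the other ASO libraries.

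Of the 8 genes tested, 4 passed the threshold, or 50.0% beside the 29.2% of all genes. Ckm and Ampd1 were higher in the ASO group and Slc6a8 and Adk were lower, whereas Ckmt2, Ckb, Ampd3 and Ak1 did not pass. The median log2 fold change of the 8 genes was 0.51, beside -0.03 for all genes tested. The ASO and CTRL libraries did not overlap for 2 of the 8 genes, Slc6a8 and Adk, both with the ASO libraries below. Among all genes tested 21.4% had such non-overlapping groups, 13.4% with the ASO libraries below and 7.98% with them above.

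**Figure D1:**
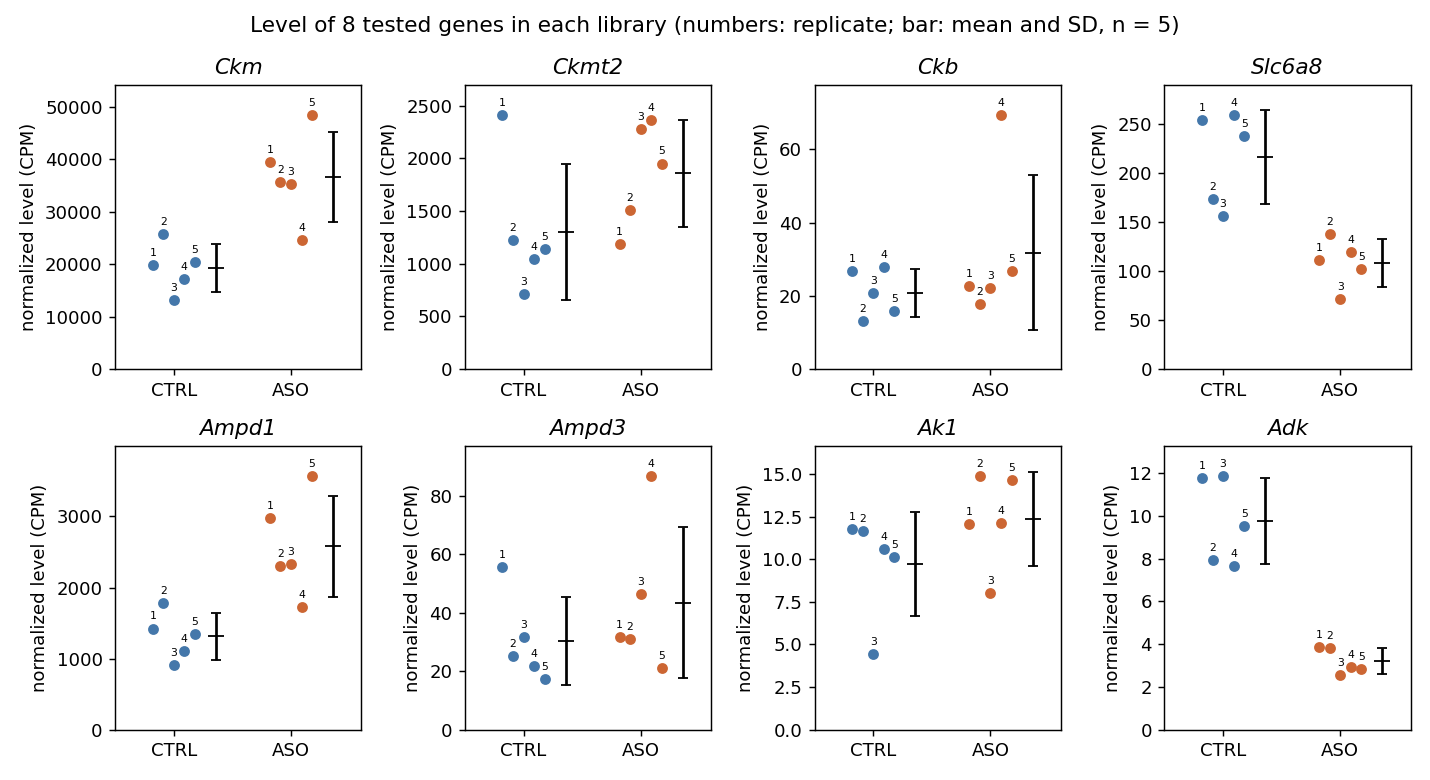
Level of the 8 tested genes in each library, in CPM on a linear axis that starts at 0, with CTRL in blue and ASO in orange, the replicate number beside each point, and the mean and SD (n = 5) as a bar. Slc6a8 and Adk show separate groups, Ckm and Ampd1 overlap only through ASO 4 and CTRL 2, and ASO 4 is the highest library for Ckb and Ampd3.

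The counted stretches set how well each gene could be measured, and they come before the values for that reason. The authors counted read pairs only over the last 500 bp, at most, of each transcript's 3′UTR, and by the default of the counting tool a pair that lies in several such segments is left unassigned. All members' segments lay in exons and held no coding bases in the GRCm39 annotation. Ckm was counted almost entirely on a 198 bp segment at chr7:19155312-19155509 (+ strand), Ckmt2 on 142 bp at chr13:92001506-92001647 (-), and Ckb on 202 bp at chr12:111635795-111635996 (-), all free of overlap with another segment. Ampd1 had 484 unshared bases of 500 on chr3:103006531-103007030 (+) and Ampd3 had 486 of 500 on chr7:110411113-110411612 (+). Slc6a8 had 349 of 500 on chrX:72724747-72725246 (+), which ends 862 bp upstream of the end of its most distal segments. Those distal segments are 3 identical copies of each other and held 0 counts.

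For the remaining 3 genes nearly all bases were shared between transcripts of the same gene. The Ak1 segment with most counts, chr2:32524565-32525064 (+), had 2 unshared bases of 500. The Adk segment, chr14:21498131-21498630 (+), had 7 of 500, and the Gamt segment, chr10:80093985-80094150 (-), had 13 of 166. Their low counts therefore do not measure how abundant these mRNAs are, and they are compared only between libraries.

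**Figure D2:**
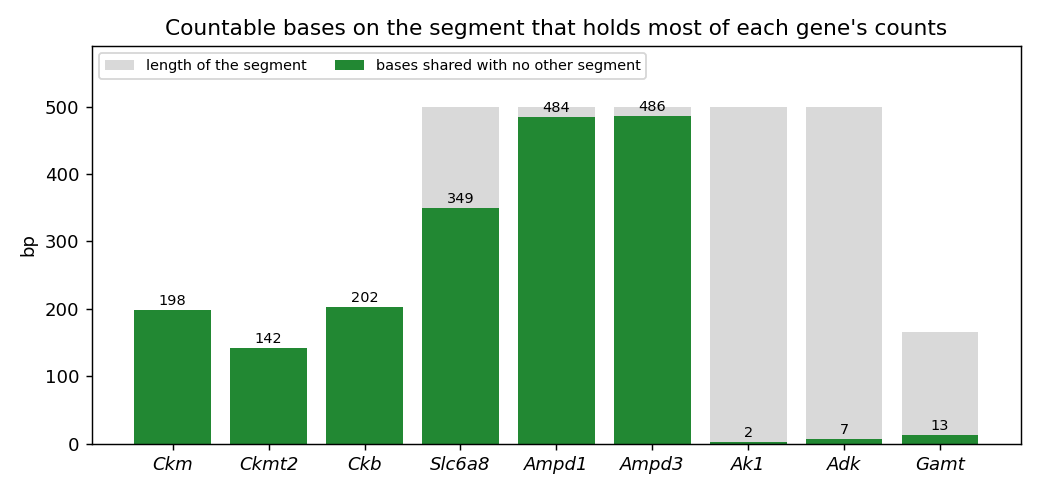
Length in bp of the segment that holds most of each gene's counts (grey) and the bases of it that no other segment shares (green, with the number printed), for the 9 genes. Ak1, Adk and Gamt keep 2, 7 and 13 countable bases, while the other 6 genes keep 142 to 486.

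Between the 6 genes that could be compared per length, levels spanned 3 orders of size. Per kb of unshared segment, Ckm stood at 93958 ± 22573 CPM in the CTRL group (SD, n = 5), Ckmt2 at 9181 ± 4556 and Ampd1 at 2716 ± 679. Slc6a8 stood at 620 ± 137 CPM per kb, Ckb at 103 ± 32.4 and Ampd3 at 62.4 ± 31.0. The place of Slc6a8 in this order rests on the upstream segment alone, since its identical distal segments held 0 counts, and so does not measure the abundance of all its mRNA. Muscle-type creatine kinase was thus the leading form, the muscle-type AMP deaminase lay well above the erythrocyte type, and the brain-type kinase was near the bottom of the order. The last 2 of these, Ckb and Ampd3, lay within their spread of each other. Without division by length, Ckmt2 and Ampd1 were at 1304 and 1315 CPM in the CTRL group, and at 1856 and 2582 CPM in the ASO group. Ckb and Ampd3 were then at 20.8 and 30.3 CPM in the CTRL group. The order within these pairs thus depends on the division by length. In the ASO group the levels per kb were 181429 ± 42442 for Ckm, 13072 ± 3561 for Ckmt2, 5335 ± 1464 for Ampd1, 310 ± 70.5 for Slc6a8, 157 ± 105 for Ckb and 89.5 ± 53.2 for Ampd3, the same order.

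Ckm, the cytosolic muscle creatine kinase, rose with the ASO. It was the gene with the 3rd highest mean count in the table and took 1.49 to 4.17% of all counts of a library. Its level was 39421, 35695, 35202, 24620 and 48392 CPM in ASO 1 to 5, and 19856, 25733, 13117, 17181 and 20349 CPM in CTRL 1 to 5. All ASO libraries but one lay above all CTRL libraries, the exception being ASO 4, which fell just under CTRL 2. The means were 36666 ± 8563 and 19247 ± 4623 CPM (SD, n = 5 each), and the fitted log2 fold change was 0.93 (SE 0.23, edgeR, Benjamini-Hochberg adjusted p = 0.011).

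The rise of Ckm sat on 1 of its 2 counted segments. The 198 bp segment, with 97.56% of the counts, averaged 35923 ± 8404 CPM in the ASO group and 18604 ± 4469 CPM in the CTRL group. The 500 bp segment that ends 1257 bp further downstream, chr7:19156267-19156766, averaged 743 ± 183 and 644 ± 155 CPM, with overlapping ranges of 508 to 918 and 430 to 846 CPM. The downstream segment accordingly held a smaller share of the Ckm counts in every ASO library, 1.69 to 2.28% against 3.28 to 3.45% in the CTRL libraries. The difference was -1.31 percentage points (2-sided exact permutation test, p = 0.0079, the smallest that 5 against 5 libraries allow, and 0.036 after adjustment over the 9 within-library measures computed). This measure was added after seeing the data, so its p-value adds no support of its own. When each gene was reduced to its most distal segment and the table was scaled anew, Ckm gave a log2 fold change of -0.07 (edgeR, adjusted p = 0.87). In the GRCm39 annotation the transcripts of both segments run on past them, by 2456 bp for the 198 bp segment and 1199 bp for the downstream one. Why the 2 segments differed was not tested.

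Ampd1, the muscle AMP deaminase, rose with Ckm. Its level was 2985, 2298, 2333, 1727 and 3568 CPM in ASO 1 to 5 and 1424, 1777, 912, 1109 and 1351 CPM in CTRL 1 to 5, with the same pair of libraries, ASO 4 and CTRL 2, crossing over. The log2 fold change was 0.97 (SE 0.23, edgeR, adjusted p = 0.0071). Within a library the 2 genes kept a nearly fixed proportion: Ampd1 counts were 7.01 ± 0.48% of Ckm counts in the ASO group and 6.83 ± 0.28% in the CTRL group. That ratio did not differ beyond its spread (difference of log2 means 0.04, exact permutation p = 0.50).

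The genes whose pattern was most like these 2 were fiber genes. Likeness was measured as the root mean square difference of centred log2(CPM + 1) values over the 10 libraries, among 7736 genes, for which the median was 0.69 to Ckm and 0.71 to Ampd1. For Ckm the closest were Myoz1, a Z-disc protein of fast fibers (0.071), and Hjv, hemojuvelin, an iron-regulating protein made in muscle (0.12). Myoz1 averaged 6565 CPM in the ASO group and 3619 CPM in the CTRL group. For Ampd1 the closest were Tnnc2, the fast troponin C (0.13), and Myoz1 (0.14). Ckm and Ampd1 differed from each other by 0.075 on this scale.

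The fast fiber markers moved with both genes. Their summed level was 32747 to 73486 CPM in the ASO libraries and 17444 to 33920 CPM in the CTRL libraries. Of the 5 markers tested out of 11 on the list 4 were higher, beside 11.7% of all genes tested. Tnnt3 and Mylpf had 0 counts, and the other untested markers averaged 2.67 CPM or less in both groups. The sum thus rests on the tested markers. Of the 7 slow fiber markers tested 1 was higher. The slow list had a median log2 fold change of 1.51, beside 1.08 for the fast list. Actn3, the actinin of fast fibers, averaged 8705 ± 3046 CPM in the ASO group and 2523 ± 932 in the CTRL group (log2 fold change 1.79, edgeR, adjusted p = 0.0015). Relative to the summed fast fiber counts of the same library, Ckm was at 71.4 ± 4.41% in the ASO group and 76.9 ± 3.02% in the CTRL group (exact permutation p = 0.064, 0.14 after adjustment over 9 measures). Ampd1 was at 4.99 ± 0.34% and 5.26 ± 0.37% (exact permutation p = 0.29). Against the fast fiber sum neither gene was thus higher in the ASO group. The part of fiber composition in the rise of Ckm and Ampd1 was not tested.

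**Figure D3:**
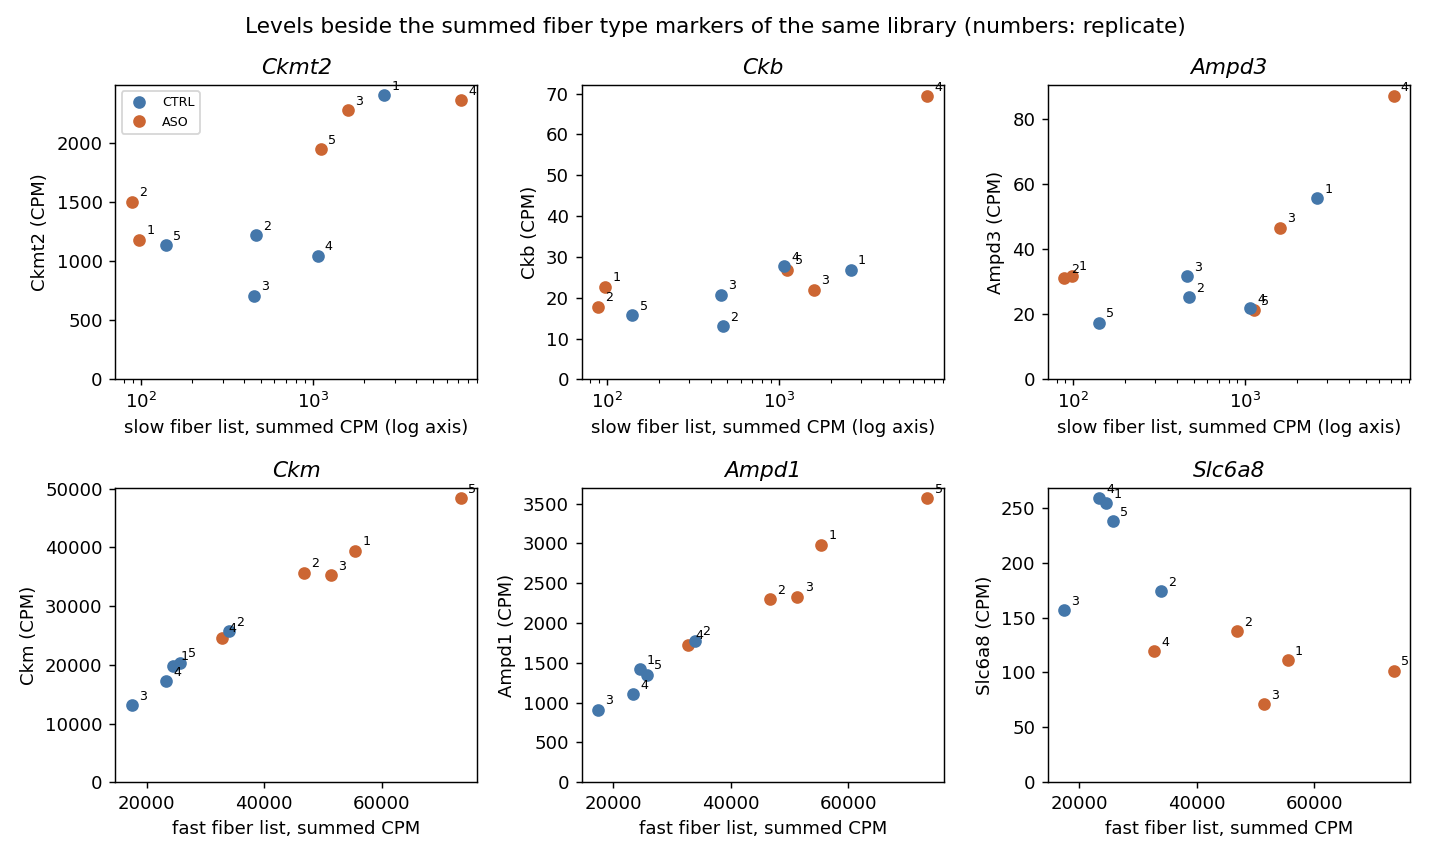
Levels of 6 genes (CPM, linear axis from 0) beside the summed CPM of the slow fiber list (upper row, log axis) or the fast fiber list (lower row, linear axis) in the same library, with CTRL in blue, ASO in orange and replicate numbers beside the points. Ckm and Ampd1 climb with the fast fiber sum across both groups, Slc6a8 splits by group, and ASO 4, with 7285 CPM of slow fiber markers, has the highest Ckb and Ampd3.

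Slc6a8, the creatine transporter, was lower in the ASO group on its only segment with counts. Its level was 111, 138, 71.0, 119 and 102 CPM in ASO 1 to 5, and 254, 174, 157, 259 and 238 CPM in CTRL 1 to 5. The groups did not overlap, and the highest ASO library lay below the lowest CTRL library. The means were 108 ± 24.6 and 216 ± 47.7 CPM (SD, n = 5 each), and the fitted log2 fold change was -0.999 (SE 0.20, edgeR, adjusted p = 0.0032). The counts behind these levels were 168 to 324 in the deeper ASO libraries and 317 to 539 in the CTRL libraries. All of them lay on the segment that ends 862 bp upstream of the end of the most distal ones, which held 0 counts. A fall of all Slc6a8 mRNA can therefore not be read from these values.

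Counts of the transporter and of the kinase therefore moved apart within libraries. Slc6a8 counts were 0.31 ± 0.12% of Ckm counts in the ASO group and 1.17 ± 0.30% in the CTRL group, a difference of -1.93 in log2 ratio (exact permutation p = 0.0079, adjusted over 9 measures 0.036). The highest ASO library was at 0.49% and the lowest CTRL library at 0.68%. A ratio shows unequal change of the 2 genes and does not depend on the scaling between libraries. This one was added after both genes were seen to differ, so its p-value adds no support beyond their own calls. In their pattern over the 10 libraries the genes most like Slc6a8 were Crat, the carnitine acetyltransferase of mitochondria (0.12), and Coq10a, a coenzyme Q binding protein (0.14), beside a median of 0.71 over all genes compared. Crat averaged 532 CPM in the ASO group and 971 CPM in the CTRL group, and Coq10a averaged 258 and 441 CPM.

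Adk, the adenosine kinase, also fell, on few counts. It had 8, 9, 6, 7 and 6 counts in ASO 1 to 5 and 25, 17, 24, 13 and 17 counts in CTRL 1 to 5, although the ASO libraries were deeper. As levels these were 2.54 to 3.86 CPM against 7.67 to 11.9 CPM, again without overlap. The log2 fold change was -1.60 (SE 0.26, edgeR, adjusted p = 0.00099), or 3.03-fold lower. With only 7 unshared bases on the counted segment this compares read pairs at its upstream edge. Over the 10 libraries the predicted gene Gm14326 was among the genes most like Adk in pattern (0.20), beside a median of 0.80.

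Slc6a8, Adk and Gamt were the members whose 3′UTR holds a match to the miR-22 seed, and the sequences are shown because miR-22 is what the oligonucleotide binds. A miRNA mostly pairs with 3′UTRs through its seed, bases 2 to 8, and the search was for the letters GGCAGCT, the complement of that seed, on the transcript strand, in the longest 3′UTR of the coding transcripts in the count table. The mature miRNA is from RefSeq (GRCm38.p6, chr11:75463772-75463793, + strand) with its seed in capitals, and the 4 sites are from GRCm39 with the seed match in capitals.
mmu-miR-22-3p: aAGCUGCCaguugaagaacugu
Slc6a8, chrX:72725073-72725101 (+): gaaacaacagtGGCAGCTtgggtaacagg
Adk, chr14:21498524-21498552 (+): gatggacttggGGCAGCTgcctaacccgc
Gamt, chr10:80092557-80092585 (-): gtgctcagcctGGCAGCTctacctgcggt
Gamt, chr10:80092189-80092217 (-): aagggcagggaGGCAGCTtgagagtccat

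The Slc6a8 and Adk matches lie inside the counted segments and the Gamt matches outside. The Adk match lies in bases shared with another Adk segment, away from the 7 unshared bases at the upstream edge. A match was present in 3 of the 9 genes (33.3%), Gamt among them, which was not tested. Among tested genes with a 3′UTR it was present in 1454 of 7781 (18.7%), and in 3 of the 30 other genes of this metabolism that were tested. The share of the 9 genes thus includes an untested gene, unlike the other shares. Ckm, Ampd1, Ckmt2, Ckb, Ampd3 and Ak1 had none in the 3′UTR searched. Of the tested members with a match both, Slc6a8 and Adk, were lower in the ASO group. Of the other 3 tested genes, Paics was lower, while Gatm and Aprt did not pass, at log2 fold changes of 0.97 and -0.12. Of all tested genes with a match (1454), 18.8% were lower and 11.6% higher, beside 17.1% lower and 11.7% higher of the 6327 without one, so nearly the same shares were called. A match is a stretch of letters and not a measured site of binding.

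Gamt, which makes creatine by methylation, had 0 or 1 count in each of the 10 libraries. This is under a floor of 3 counts in both groups, so no fold change is given. Gatm, which catalyses the step before Gamt and is not one of the 9 genes, was tested at 13.7 ± 13.0 CPM in the ASO group and 6.94 ± 3.08 in the CTRL group (log2 fold change 0.97, edgeR, adjusted p = 0.19). ASO 4 was at 36.7 CPM and the other ASO libraries at 6.76 to 10.2 CPM. With 1 library left out, the log2 fold change of Gatm fell as low as 0.20.

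Ckmt2, the mitochondrial creatine kinase of striated muscle, did not pass the threshold. Its level was 1183, 1505, 2278, 2365 and 1951 CPM in ASO 1 to 5, and 2408, 1220, 709, 1047 and 1134 CPM in CTRL 1 to 5. CTRL 1 was the highest library of all, above every ASO library, while the other 4 CTRL libraries lay at 1220 CPM or below, where only ASO 1 of the ASO libraries lay. The log2 fold change was 0.51 (SE 0.30, edgeR, adjusted p = 0.22), and without CTRL 1 it was 0.85 (edgeR, adjusted p = 0.019). CTRL 1 also had the highest slow fiber sum of its group, 2607 CPM against 140 to 1067 CPM. Ckmt2 made up 5.47 ± 2.64% of Ckm counts in the ASO group and 6.79 ± 3.02% in the CTRL group, which was not distinguishable (difference of log2 ratios -0.35, exact permutation p = 0.39, 0.46 after adjustment over the 4 planned ratios).

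Ckb and Ampd3 were each highest in the same library. Ckb was at 22.7, 17.8, 21.99, 69.3 and 26.9 CPM in ASO 1 to 5, and at 26.9, 13.1, 20.8, 27.7 and 15.7 CPM in CTRL 1 to 5. ASO 4 alone exceeded the CTRL range. The log2 fold change was 0.61 (SE 0.37, edgeR, adjusted p = 0.24), and without ASO 4 it was 0.12 (edgeR, adjusted p = 0.74).

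Ampd3 was at 31.9, 31.0, 46.5, 86.8 and 21.2 CPM in ASO 1 to 5, and at 55.7, 25.2, 31.6, 21.8 and 17.4 CPM in CTRL 1 to 5. The groups overlapped, and ASO 4 again exceeded the CTRL range. The log2 fold change was 0.52 (SE 0.39, edgeR, adjusted p = 0.34), which was 0.11 without ASO 4 and 0.86 without CTRL 1 (edgeR, adjusted p = 0.83 and 0.10). Ampd3 amounted to 2.02 ± 1.76% of Ampd1 counts in the ASO group and 2.43 ± 1.21% in the CTRL group (exact permutation p = 0.46).

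The level of slow fiber markers varied among mice of both groups. The slow fiber list summed to 98.0, 88.8, 1597, 7285 and 1121 CPM in ASO 1 to 5 and to 2607, 471, 458, 1067 and 140 CPM in CTRL 1 to 5. Myh7, the slow myosin heavy chain, had 0 counts in 3 libraries (ASO 1, ASO 2 and CTRL 5) and 641 in ASO 4. The 3 libraries with the highest slow fiber sums, ASO 4, CTRL 1 and ASO 3, were also the 3 highest for Ckmt2 and for Ampd3. ASO 4 was the library with the most Schwann cell markers too, at 568 CPM against 41.0 to 125 CPM in the other ASO libraries. The part of fiber or nerve content in the levels of these 3 genes was not tested.

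Ak1, the cytosolic adenylate kinase, had 19 to 35 counts in the ASO libraries and 9 to 25 in the CTRL libraries. Its level was 8.03 to 14.9 CPM against 4.45 to 11.8 CPM, with overlapping groups, and the log2 fold change was 0.34 (SE 0.29, edgeR, adjusted p = 0.39). Relative to Ckm its counts were lower in the ASO group by 0.55 in log2 ratio (-0.55, exact permutation p = 0.048), which did not hold after adjustment over the 4 planned ratios (0.19). Ckb relative to Ckm differed by -0.46 (exact permutation p = 0.44).

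**Figure D4:**
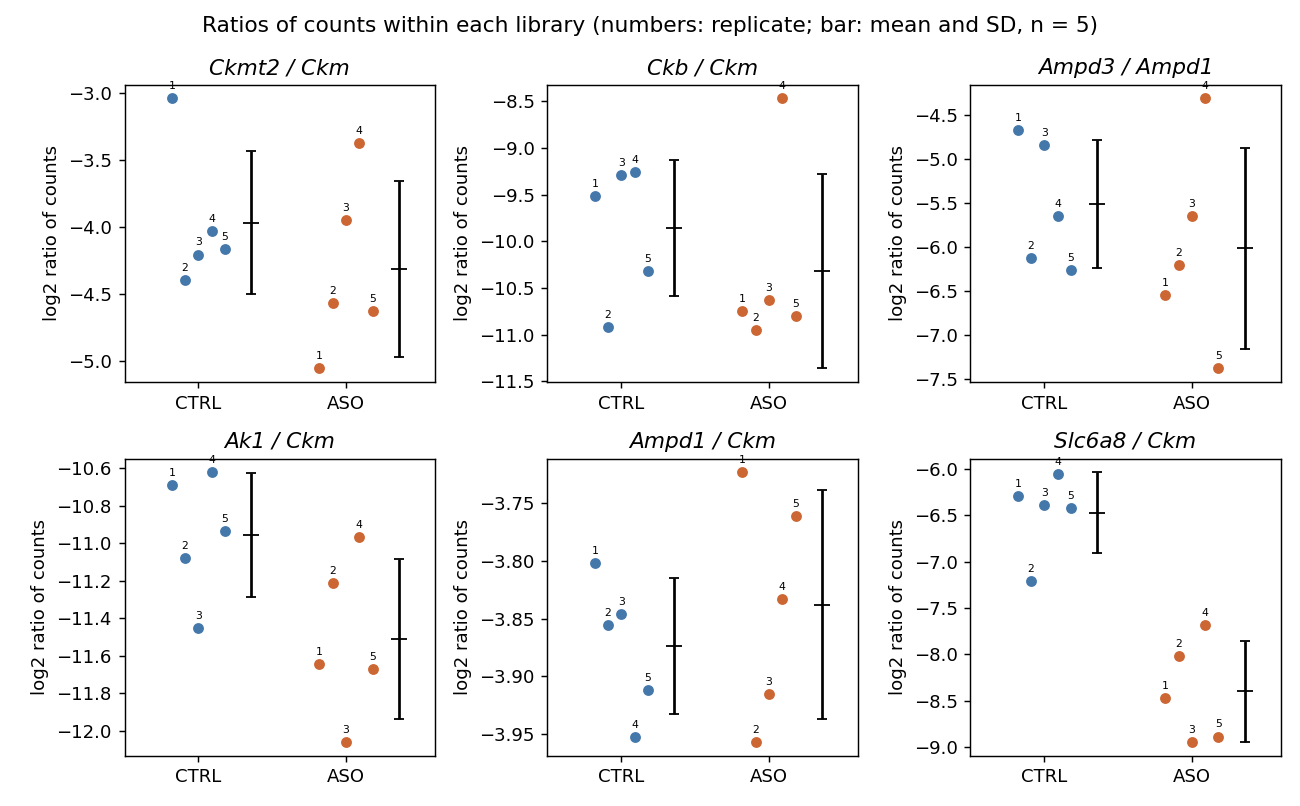
Log2 ratios of counts within each library for 6 pairs of genes, with CTRL in blue, ASO in orange, replicate numbers beside the points and the mean and SD (n = 5) as a bar; each panel has its own axis. The Slc6a8 to Ckm ratio separates the groups, Ampd1 to Ckm stays between -3.96 and -3.72 over all libraries, and the Ckmt2, Ckb and Ampd3 ratios overlap, with ASO 4 the highest ASO library in each.

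The wider metabolism was read from 54 other genes listed by role, of which 30 could be tested, 7 had 0 counts in every library and the rest were too low. Among the 30, 2 were higher and 5 lower in the ASO group, which is 23.3% called beside 29.2% of all genes, and their median log2 fold change was -0.18. The adenylate kinases showed no call among 4 tested, Ak1 included. The nucleoside diphosphate kinases showed none among 2 tested. The exchange of ADP and ATP across the mitochondrial membranes had 1 of 5 higher, the porin gene Vdac2 (log2 fold change 0.47, edgeR, adjusted p = 0.047). Vdac2 shares bases with a segment of Comtd1, and its call was lost in 7 of the 10 fits that left out 1 library. The muscle ADP/ATP carrier Slc25a4 was at 2250 ± 704 CPM and 1481 ± 317 CPM (log2 fold change 0.60, edgeR, adjusted p = 0.069).

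**Figure D5:**
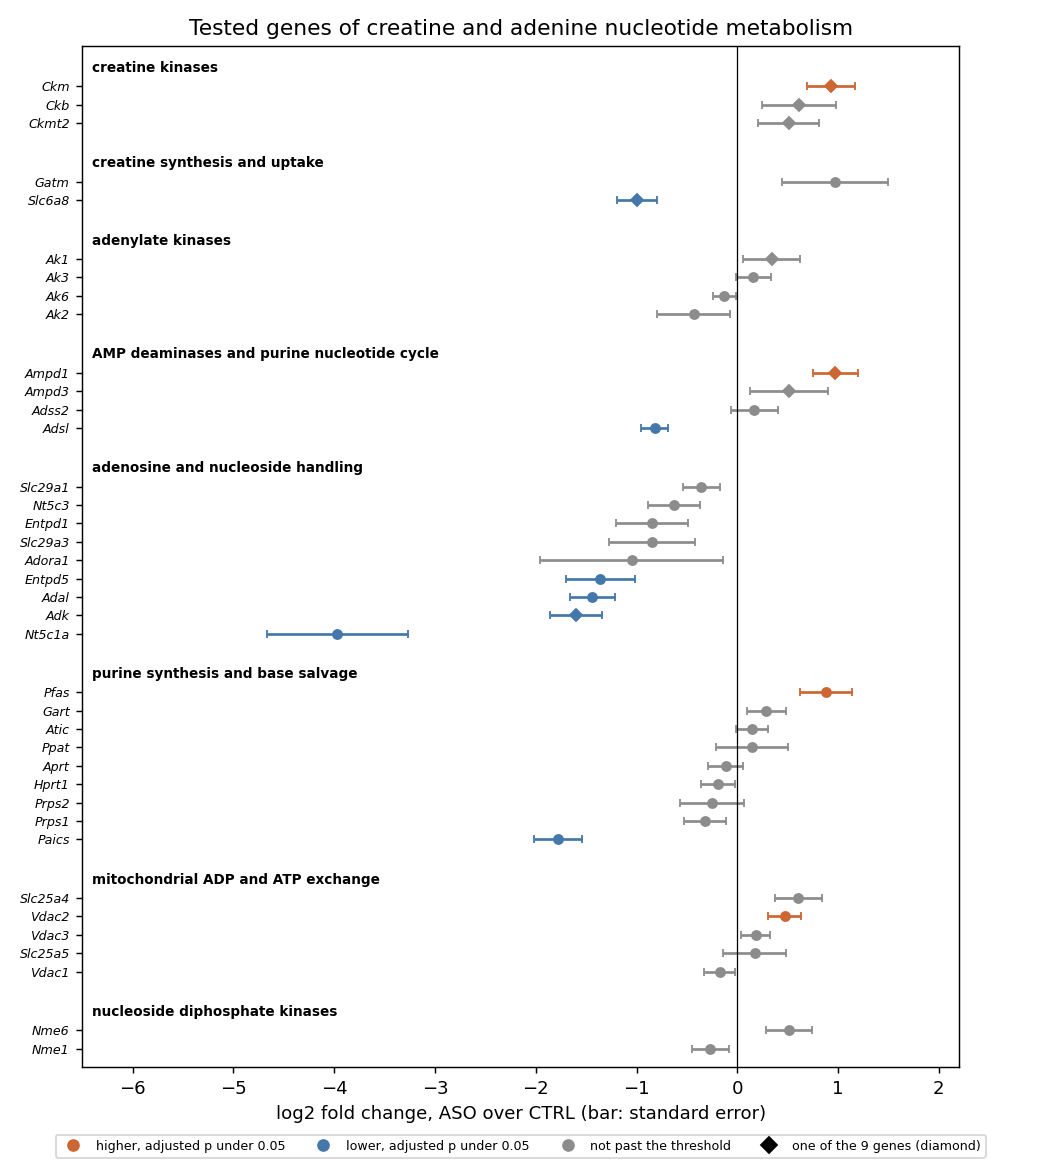
Log2 fold change of ASO over CTRL (points) with its standard error (bars) for the 38 tested genes, grouped by role, with orange for higher, blue for lower and grey for not past an adjusted p of 0.05 in edgeR; diamonds mark the 8 of the 9 listed genes that were tested. Adenosine and nucleoside handling holds 4 of the 7 lower genes and no higher one.

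Adenosine and nucleoside handling had 4 of 9 tested genes lower, Adk among them, and none higher, beside 17.5% lower and 11.7% higher over all genes. Nt5c1a, the cytosolic 5′-nucleotidase of muscle that makes adenosine from AMP, had 6, 1, 1, 1 and 0 counts in ASO 1 to 5 and 14, 18, 12, 36 and 46 counts in CTRL 1 to 5. The groups did not overlap (log2 fold change -3.97, SE 0.70, edgeR, adjusted p = 0.0016). Adal, an adenosine deaminase-like enzyme, fell by 1.44 on the log2 scale (edgeR, adjusted p = 0.00079), and 71.0% of its counts lay on 42 bp whose end is 1091 bp upstream of the end of its most distal segment. Entpd5, an endoplasmic reticulum enzyme that hydrolyses nucleoside diphosphates, fell by 1.36 (edgeR, adjusted p = 0.011), with 70.8% of the counts on a stretch whose end is 2820 bp upstream of the end of its most distal segment.

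In the purine nucleotide cycle, which returns the IMP made by AMP deaminase to AMP, Ampd1 rose while Adsl, the adenylosuccinate lyase, fell by 0.82 on the log2 scale (edgeR, adjusted p = 0.001). Adsl averaged 144 ± 16.6 CPM in the ASO group and 255 ± 29.7 CPM in the CTRL group. Its segments did not move together. The one with 51.7% of the counts, ending 6977 bp upstream of the end of the most distal, held 77 to 166 counts in the ASO libraries and 268 to 316 in the CTRL libraries, before any scaling for depth. The one ending 4823 bp upstream, with 22.8% of the counts, was lower too, at 63 to 88 and 98 to 122 counts. The one ending 1827 bp upstream, with 24.9% of the counts, held 80 to 153 and 59 to 126. Adss1, the muscle adenylosuccinate synthase, had 3 to 9 counts on 21 unshared bases and was not tested.

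In purine synthesis and base salvage 2 of 9 tested genes passed, in opposite directions, a share of 22.2% that lay below the 29.2% of all genes. Paics, which catalyses a pair of middle steps of new purine synthesis, held 87 to 278 counts in the ASO libraries and 484 to 523 in the CTRL libraries (log2 fold change -1.78, SE 0.24, edgeR, adjusted p = 0.00042). Its 2 counted segments, ending 196 and 5030 bp upstream of the end of the most distal one, were both lower. The most distal segment, with 4 unshared bases, held 0 counts. Pfas, which acts earlier in the same route, was at 30.0 ± 10.2 CPM and 16.3 ± 4.13 CPM (log2 fold change 0.88, SE 0.26, edgeR, adjusted p = 0.022), with the groups apart, and its call was lost without ASO 5 or without CTRL 4 (edgeR, adjusted p = 0.053 and 0.05).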

How the data were processed

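RNA-seq of 10 gastrocnemius libraries (5 anti-miR-22 ASO, 5 CTRL, grouped by their labels) was analysed. The authors used fastp for trimming, STAR for alignment (GRCm39) and featureCounts, and deposited counts of poly(A) RNA read pairs over the last 500 bp of each transcript's 3′UTR (Gencode M25). The versions of STAR and featureCounts and the strand setting are not given in the sources used here. The table holds 4 further per-sample columns, which matched no label and were not used. Segments were assigned to genes through GENCODE M39 (62 of 52423 unmatched, 0.0197% of counts) and summed per gene. Genes were kept by filterByExpr, scaled by TMM and tested with edgeR 4.0.16 (quasi-likelihood, group only, 2-sided, R 4.3.3), with Benjamini-Hochberg adjustment over all 7819 genes (6 of them identifiers with no gene match). Ratios within a library, with 0.5 added to each count, were compared by exact permutation over all labellings. DESeq2 1.42.0, limma 3.58.1 (voom), other scalings, filters, segments and left-out libraries served as alternatives, and the computations were tested on simulated data. p-values weigh the difference between the groups against the spread between these libraries. Deposited counts limit precision at low levels, and no molecular identifiers are described.

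The text names the 9 genes, other listed genes of the metabolism past the threshold (at most 12, by smallest p), the 2 genes most like each called member (1 of those for Adk is not reported here), and Myh7, Actn3 and Myog among the markers. Gatm, Aprt, Slc25a4 and Adss1 were named after their values were seen. The members, the lists and the tests were chosen with earlier results of these data known. Ratios to Ckm or to the fast fiber sum beyond the 4 planned ones, and the share on the downstream Ckm segment, were added after seeing the data.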

Additional observations from a re-analysis of the deposited data

Results flagged for a closer look

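In groups of 5 libraries, a library was singled out when its gap to the nearest other one, divided by the range of the group, exceeded Dixon's critical value of 0.710. This met 9 of 46 groups examined, where chance alone gives about 1 in 20. Among the genes described, Ckb was at 69.3 CPM in ASO 4 against 17.8 to 26.9 CPM in the other ASO libraries (gap 0.824 of the range), and the log2 ratio of Ckb to Ckm was -8.47 there against -10.95 to -10.63 (0.872). Ak1 was at 4.45 CPM in CTRL 3 against 10.1 to 11.8 CPM in the other CTRL libraries (0.771), on 9 counts. The log2 ratio of Ckmt2 to Ckm was -3.04 in CTRL 1 against -4.40 to -4.04 (0.732). Among the marker sums, ASO 4 was apart for slow fiber markers (7285 CPM against 88.8 to 1597, 0.79) and Schwann cell markers (568 CPM against 41.0 to 125, 0.841). ASO 5 was apart for skeletal muscle fiber markers (98760 CPM against 72361 to 78247, 0.777). CTRL 3 was apart for adipocyte markers (13740 CPM against 846 to 2383, 0.881) and macrophage markers (766 CPM against 125 to 282, 0.754).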

How the results depend on the processing

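Ckm, Ampd1, Slc6a8 and Adk kept their direction and their call in every alternative that gave them a value, except Ckm on its most distal segment (log2 fold change -0.069). Leaving out 1 library at a time gave 691 to 1021 genes higher, 1126 to 1370 lower, 2 to 3 of the 9 genes higher (Ckmt2 joined without CTRL 1) and 2 lower, and 0 to 3 of the other listed genes higher. With each gene counted on its most distal segment alone there were 231 genes higher and 338 lower, with 0 of the 9 genes higher and 0 lower, and 0 of the other listed genes higher and 1 lower. Adk, Ak1, Ampd1 and Slc6a8 had no value there. The ratios of Ckmt2 and Ckb to Ckm turned to 0.38 and 0.27 (exact permutation p = 0.33 and 0.73) and that of Ckm to the fast fiber sum became -0.85 (exact permutation p = 0.0079). Scaling by total counts gave 528 genes higher and 1821 lower and moved the median of all genes by -0.18. The other listed genes higher numbered 1 with total counts, with no filter, with only the segment of most counts (added after seeing the data) and with the replicate block. Without the 20 most abundant genes, Ckm among them, 1 of the 9 genes was higher, and a minimum of 10 counts in every library left 1 lower, since Adk dropped out. The Ak1 to Ckm ratio ranged from -0.69 to -0.42 with 1 library left out, and was -0.49 on the segment of most counts (exact permutation p = 0.12). That of Ckm to the fast fiber sum ranged from -0.13 to -0.081.

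The replicate numbers did not pair the libraries, since same-numbered libraries correlated at -0.43 to 0.17 and 0 of 5 correlated best with their own number. With the replicate block 663 genes were higher and 1175 lower. The ratio of Ak1 to Ckm was then -0.55 and that of Slc6a8 to Ckm -1.93, both at an exact sign-flip p of 0.0625, the smallest that 5 pairs allow.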

Other observations

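The denervation markers, which muscle fibers express when nerve contact is reduced, summed to 362 to 629 CPM in the ASO libraries and 210 to 305 CPM in the CTRL libraries, and 2 of the 6 tested were higher. Myog, a transcription factor of muscle differentiation, averaged 65.5 ± 28.9 CPM in the ASO group and 14.7 ± 2.39 CPM in the CTRL group (log2 fold change 2.16, edgeR, adjusted p = 0.00037), with 39.6 to 105 CPM against 11.3 to 17.4 CPM. Fibroblast markers had 1 of 4 tested lower, macrophage markers 1 of 5 lower and smooth muscle markers 1 of 3 higher. Adipocyte, endothelial, Schwann cell and blood markers had no call among 6, 5, 4 and 4 tested (edgeR). Among all genes tested 11.7% were higher and 17.5% lower.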
